A study of Mus musculus with 35 samples.

Results

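The genes Dsg2, Dmkn, Sbsn, Myo5c, Vill and Ptprh, better known from epithelia than from brain, were read out of bulk RNA-seq of mouse striatum. They are 6 of the 39109 entries of the count table and passed the count filter in each comparison, as did 17346 genes in at least 1. They were picked because their counts differed with the HttQ111 allele or with deletion of Hdac2 in striatal neurons. Those differences are therefore given as a description with standard errors and without p-values. The 35 libraries, 1 a mouse, fell into 4 genotype groups. HttQ111/+ mice carry 1 knock-in Htt allele with an expanded CAG repeat, a model of the Huntington's disease mutation, and Htt+/+ mice carry none. Hdac2 KO mice are homozygous for a floxed Hdac2 allele and carry the D9-Cre transgene, in which a genomic fragment of Ppp1r1b drives Cre in medium-spiny neurons (MSNs), the principal striatal neurons, after the first postnatal weeks. Hdac2 WT mice are labelled Cre-. There were 8 Htt+/+ and 7 HttQ111/+ mice with Hdac2 WT, and 9 Htt+/+ and 11 HttQ111/+ mice with Hdac2 KO. All were 21.71 to 23 weeks old, and 22 were male and 13 female. The carriers' repeat lengths fell into 2 classes, 110 to 118 in mice of the A and Z identifier series and 131 to 144 in mice of the V series, and Htt+/+ mice are labelled 7.

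Several features limit the groups as a model. Each KO mouse carried Cre and each WT mouse did not, so Cre itself and loss of Hdac2 cannot be told apart. The floxed line came from a mixed C57BL/6/129SeEv background, and 2 of the Htt+/+ Hdac2 WT mice had 1 floxed allele. Deletion is restricted to neurons in which the Ppp1r1b fragment is active, while the tissue holds glia, vessels and other neurons that keep Hdac2. Of the 6 days of RNA extraction, WT and KO libraries share only 2, with 1 KO library on each.

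Epithelia are sheets of cells with a free surface and cell-to-cell junctions. Desmosomes are junctions built from the cadherins desmoglein and desmocollin, which plakoglobin, plakophilins and desmoplakin tie to intermediate filaments, and Dsg2 is the desmoglein of simple epithelia and heart. The stratified epidermis secretes small proteins as its cells differentiate, and Dmkn (dermokine), Sbsn (suprabasin) and Krtdap, which lie side by side in the genome, encode such proteins. Absorptive and secretory epithelia move vesicles along actin, to which Myo5c, a class V myosin of glandular epithelia, belongs, and shape the free surface with actin-binding proteins such as villin, of which Vill is a relative. Ptprh is a receptor-type tyrosine phosphatase of the R3 subfamily known from the brush border of the gut.

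Dmkn and Sbsn are the members that lie next to each other, on the forward strand of chromosome 7 (GRCm38). The start-site regions of this pair are shown because the pair moved in opposite directions in Hdac2 KO striatum, as described further on. Each line holds the 250 bases before an annotated start, 5′ to 3′ on the forward strand, from RefSeq on GRCm38.p6. Capitals mark a match to TGAGTCA, the core letters bound by AP-1 factors.
Sbsn, chr7:30751221-30751470: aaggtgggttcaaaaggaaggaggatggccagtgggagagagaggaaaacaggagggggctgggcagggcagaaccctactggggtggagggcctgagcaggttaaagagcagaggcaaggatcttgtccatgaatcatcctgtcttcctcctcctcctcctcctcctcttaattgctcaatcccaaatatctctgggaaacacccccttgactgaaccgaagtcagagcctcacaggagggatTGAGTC
Dmkn, first start, chr7:30763506-30763755: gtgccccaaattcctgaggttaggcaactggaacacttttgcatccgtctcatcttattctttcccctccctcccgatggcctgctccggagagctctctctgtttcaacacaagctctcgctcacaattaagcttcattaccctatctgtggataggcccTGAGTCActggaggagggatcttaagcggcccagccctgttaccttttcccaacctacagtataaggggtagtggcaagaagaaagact
Dmkn, internal start within an intron of longer transcripts, chr7:30776155-30776404: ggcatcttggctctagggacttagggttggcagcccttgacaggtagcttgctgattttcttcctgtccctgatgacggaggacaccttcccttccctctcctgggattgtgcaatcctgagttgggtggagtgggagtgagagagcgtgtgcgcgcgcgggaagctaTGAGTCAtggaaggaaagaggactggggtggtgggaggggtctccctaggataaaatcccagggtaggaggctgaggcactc
The Sbsn match begins 6 bases before the start and its last base falls past it, so 6 of its 7 letters are printed. In the Dmkn windows the match begins 89 and 82 bases before the start. Over windows running from 250 bases before to 50 bases after a start, TGAGTCA on either strand was found in 5.2% of 32817 RefSeq windows. Among the 5 members with an entry, the letters were in the windows of Dmkn, Sbsn and Ptprh and in neither that of Myo5c nor that of Vill. The window of Krtdap, the next gene of the epidermal cluster, held them 81 bases before its start. Neither TGACGTCA (1.79% of windows) nor CACGTG (7.15%) occurred in a window of a member, and TATAAA (13.6%) occurred in that of Myo5c. These matches are letters in a window and do not show that a factor binds there.

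Sequencing depth ranged from 50970712 to 77867348 counts per library with a median of 57322618. Hdac2 itself checked the labels. It had means of 103 and 105 CPM (counts scaled to the library total after TMM adjustment) in the Htt+/+ and HttQ111/+ Hdac2 WT groups and 94.4 and 95.2 CPM in the Hdac2 KO groups, and the ranges of WT and KO libraries overlapped. The floxed exons are deleted in MSNs only while the whole gene was counted, so this row checks the labels weakly. Ppp1r1b, the MSN marker whose fragment drives Cre, had means of 1574 and 1190 CPM in the Htt+/+ and HttQ111/+ Hdac2 WT groups and 1838 and 1555 CPM in the KO groups. The transgene's fragment includes part of the Ppp1r1b exons and introns, so transgene reads could enter this row in KO libraries. Their part in the KO levels was not tested. Replicate 1 of the Htt+/+ Hdac2 WT group held a summed 219.9 CPM of 10 choroid plexus markers against a median of 36.6 CPM over all libraries. Leaving this library out turned no member's direction and ended 1 call, that of Sbsn for HttQ111 in Hdac2 WT mice. No 2 libraries of a group were alike within sampling noise. In bulk tissue, fewer cells of a type and less RNA per cell cannot be told apart, which holds for each level below.

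Per kb of annotated exon, mean levels in the Htt+/+ Hdac2 WT group were 10.8 CPM per kb for Dmkn, 7.07 for Sbsn, 0.684 for Myo5c, 0.513 for Ptprh, 0.47 for Vill and 0.211 for Dsg2. Reads were counted over whole gene intervals, introns included, so these levels rank the genes only roughly. The least covered values, 0.449 CPM for Dsg2 and 0.429 CPM for Vill, rested on 23 counts each.

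In Hdac2 WT mice for the HttQ111 allele, and in both Htt genotypes for Hdac2 KO, the 6 members showed 3 patterns. Dsg2, Vill and Ptprh were higher with HttQ111 and higher with Hdac2 KO. Dmkn and Myo5c were lower with HttQ111 and higher with Hdac2 KO. Sbsn was lower with either. The log2 differences below are from edgeR quasi-likelihood fits over all genes with surrogate variables for hidden variation among libraries. With a Benjamini-Hochberg adjusted p under 0.05, all 6 members were called for Hdac2 KO against WT in Htt+/+ mice, where 17.8% of tested genes were called (9.06% higher and 8.79% lower). Of the members 5 were higher and 1, Sbsn, was lower. All 6 were called for KO against WT in HttQ111/+ mice, where the share over all genes was 16.5% (7.68% higher and 8.86% lower), again 5 higher and Sbsn lower. For HttQ111/+ against Htt+/+ in Hdac2 WT mice the 6 were called beside 0.403% of all genes (0.181% higher and 0.222% lower), 3 of them higher and 3 lower, and in Hdac2 KO mice 0 were called beside 0.00584%. The genes were chosen from these comparisons, so the counts are given without a reading. In the last comparison 1 gene of the whole table was called and 1287 had an unadjusted p under 0.05, while DESeq2 called 45 genes and 1 member, Myo5c. Without Htt+/+ Hdac2 KO replicate 5 edgeR also called Myo5c. For HttQ111 in Hdac2 WT mice the number of members called rested on single libraries. It was 1, Dsg2, without Htt+/+ Hdac2 WT replicate 2 and 3 without HttQ111/+ Hdac2 WT replicate 3. Over the 35 fits that each left out 1 library, the call of Sbsn held in only 20 and that of Vill in 29. The calls of Dmkn and Ptprh held in 33 each, that of Myo5c in 34 and that of Dsg2 in 35. For KO in HttQ111/+ mice the call of Sbsn was lost without HttQ111/+ Hdac2 WT replicates 1 or 6 or HttQ111/+ Hdac2 KO replicate 8 (log2 differences of −0.09, −0.20 and −0.20), and that of Dsg2 without replicates 1 or 6 of HttQ111/+ Hdac2 WT (0.33 and 0.31).

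**Figure D1:**
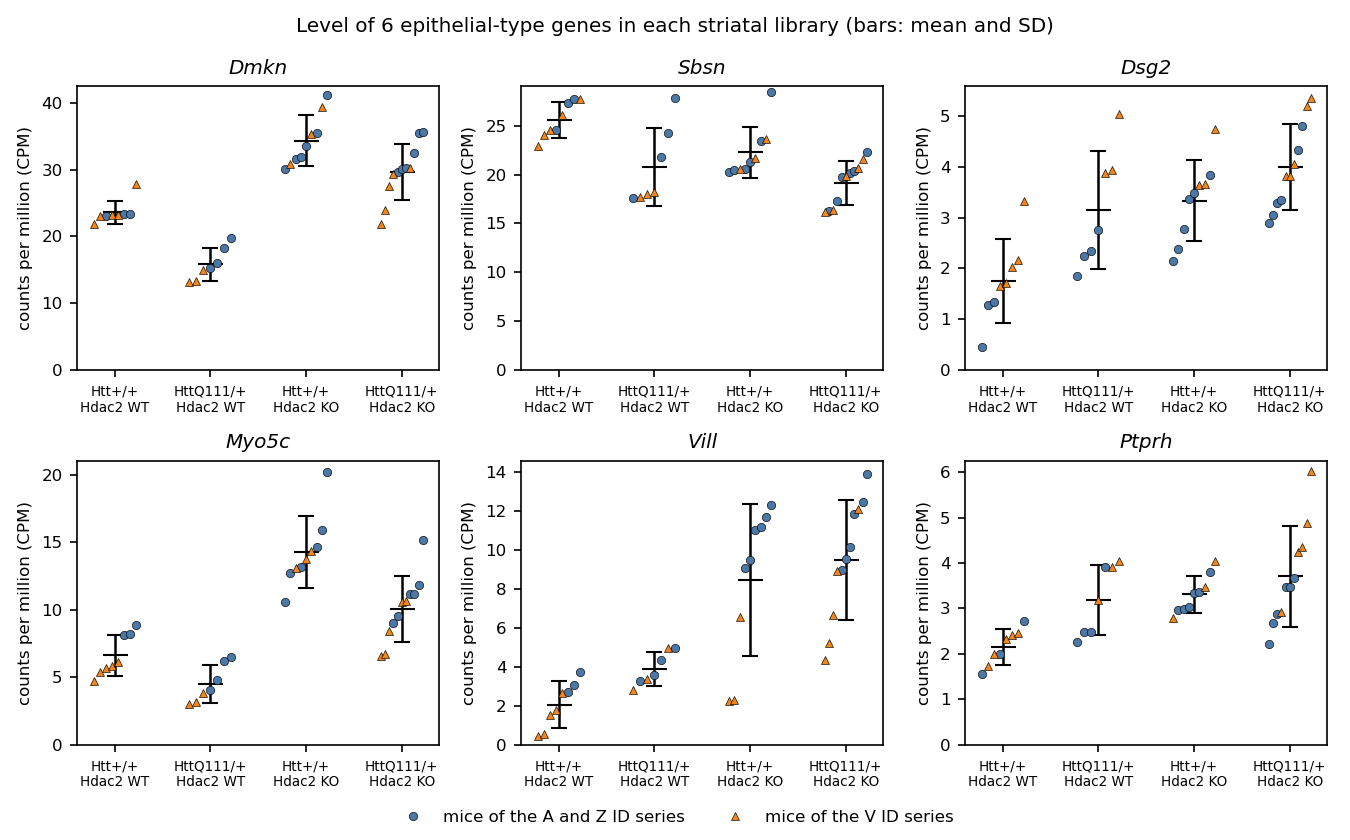
Level of each of the 6 genes in CPM, counts scaled to the library total (vertical axis, linear from 0), in the 4 genotype groups. Each symbol is 1 library, circles for the A and Z identifier series and triangles for the V series, with the group mean and SD as a bar. Dmkn in HttQ111/+ Hdac2 WT libraries (13.3 to 19.8 CPM) lies below every other group, and Myo5c in the Htt+/+ Hdac2 KO group (10.6 to 20.2 CPM) lies above every Hdac2 WT library.

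Dsg2, the desmosomal cadherin, was measured on chromosome 18 from 20558074 to 20604521. In Htt+/+ Hdac2 WT striatum it ranged from 0.449 to 3.33 CPM with a median of 1.69. In HttQ111/+ Hdac2 WT striatum it ranged from 1.85 to 5.04 CPM (median 2.76). The KO groups ranged from 2.15 to 4.74 CPM (median 3.48) in Htt+/+ and from 2.90 to 5.35 CPM (median 3.82) in HttQ111/+ mice. The Htt+/+ Hdac2 WT group was therefore the low one, the other 3 overlapped broadly, and each step in the order of the group means lay within the SDs of its neighbours. Dsg2 was higher in KO than in WT striatum by 1.33 ± 0.17 (log2, SE) in Htt+/+ mice and by 0.44 ± 0.14 in HttQ111/+ mice. The HttQ111/+ minus Htt+/+ difference was 0.94 ± 0.16 in Hdac2 WT and 0.05 ± 0.12 in Hdac2 KO mice.

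Dmkn, which encodes the secreted epidermal protein dermokine, covers 30763756 to 30781066 of chromosome 7. Its lowest group was HttQ111/+ Hdac2 WT, at 13.3 to 19.8 CPM (median 15.4). Htt+/+ Hdac2 WT libraries held 21.8 to 27.8 CPM (median 23.2), HttQ111/+ Hdac2 KO libraries 21.8 to 35.7 (median 30.1) and Htt+/+ Hdac2 KO libraries 30.0 to 41.1 (median 33.5). No HttQ111/+ Hdac2 WT library reached the lowest library of any other group, and the Htt+/+ WT and KO libraries did not overlap either. Only the 2 KO groups overlapped within their SDs. KO minus WT was 0.60 ± 0.085 (log2, SE) in Htt+/+ and 0.80 ± 0.078 in HttQ111/+ mice. HttQ111/+ minus Htt+/+ was −0.42 ± 0.082 in Hdac2 WT and −0.21 ± 0.064 in Hdac2 KO striatum.

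Sbsn, the gene of the secreted protein suprabasin, was counted over 30734739 to 30756126 of chromosome 7. Htt+/+ Hdac2 WT libraries held the most, 23.0 to 27.7 CPM with a median of 25.3. The Htt+/+ Hdac2 KO group spanned 20.3 to 28.4 CPM (median 21.3), the HttQ111/+ Hdac2 WT group 17.6 to 27.8 (median 18.2) and the HttQ111/+ Hdac2 KO group 16.1 to 22.3 (median 19.9). All neighbouring groups in this order overlapped, but each HttQ111/+ Hdac2 KO library lay below each Htt+/+ Hdac2 WT library. Sbsn was lower in KO than in WT by −0.39 ± 0.074 (log2, SE) in Htt+/+ and by −0.22 ± 0.066 in HttQ111/+ mice. The HttQ111 differences were −0.31 ± 0.070 in Hdac2 WT and −0.14 ± 0.056 in Hdac2 KO mice.

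The Sbsn row does not hold suprabasin reads alone. Its counted interval begins well before the first coding Sbsn transcript, whose annotated start is 30751471 in the newer annotation, and it covers part of C630016N16Rik, a noncoding gene on the same strand (30729579 to 30745929), as well as Gm26935 and Gapdhs. In the newer annotation the same start and end, 30734739 to 30756126, are those of a second noncoding gene named Tmem147os. Reads in the shared stretch could enter both rows. C630016N16Rik held 566 to 1000 counts per library, and its own differences did not pass the test (KO minus WT of −0.13 ± 0.077, adjusted p = 0.286, in Htt+/+ and −0.14 ± 0.068, adjusted p = 0.182, in HttQ111/+ mice). Taking its counts away as the most that could be shared left at least 8.17% to 59.6% of the Sbsn counts per library (median 41.6%). The counts left were 702 ± 93 (SD, range 599 to 835) in Htt+/+ Hdac2 WT, 537 ± 110 (360 to 756) in Htt+/+ Hdac2 KO, 370 ± 101 (212 to 495) in HttQ111/+ Hdac2 KO and 364 ± 259 (89 to 829) in HttQ111/+ Hdac2 WT libraries. Reads of the second Tmem147os gene can still be among them. On these remaining counts the row kept its sign in each comparison, with log2 differences of −0.79 and −0.33 for KO and −0.91 and −0.45 for HttQ111. This subtraction was chosen after the counts had been seen. Of the 3 differences that were called, 2 no longer were, those for KO in HttQ111/+ mice and for HttQ111 in Hdac2 WT mice.

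**Figure D2:**
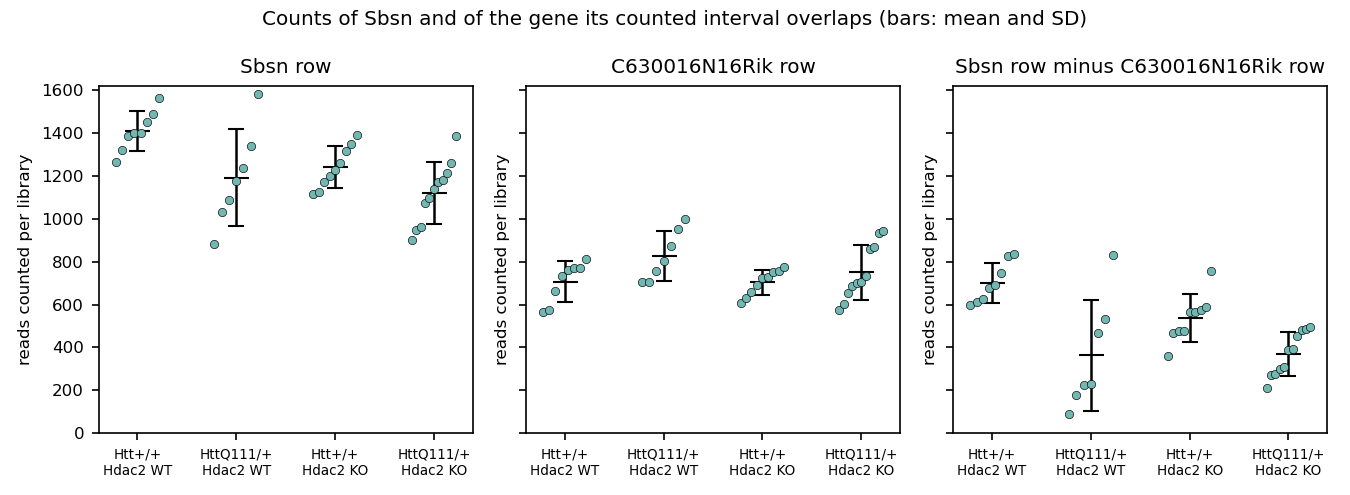
Read counts per library (vertical axis, linear) of the Sbsn row, of the overlapping noncoding gene C630016N16Rik, and of their difference, in the 4 groups, 1 point a library. The overlapping gene stays between 566 and 1000 counts in all groups, while the difference has its highest mean, 702 counts, in Htt+/+ Hdac2 WT libraries.

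Myo5c, the class V myosin of secretory epithelia, lies at 75232014 to 75305451 of chromosome 9. It was lowest in HttQ111/+ Hdac2 WT striatum (3.04 to 6.53 CPM, median 4.07) and next in Htt+/+ Hdac2 WT striatum (4.72 to 8.84, median 6.00). In the Hdac2 KO groups it ranged from 6.57 to 15.2 CPM (median 10.6) in HttQ111/+ and from 10.6 to 20.2 CPM (median 13.8) in Htt+/+ mice. KO and WT libraries did not overlap in either Htt genotype, and in HttQ111/+ mice they came as close as 6.57 and 6.53 CPM. KO minus WT was 0.88 ± 0.11 (log2, SE) and 1.21 ± 0.11 in Htt+/+ and HttQ111/+ mice. HttQ111/+ minus Htt+/+ was −0.64 ± 0.11 in Hdac2 WT and −0.31 ± 0.080 in Hdac2 KO striatum.

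Vill, a villin-like member of the villin and gelsolin family, lies at 119052778 to 119071337 of chromosome 9. The Htt+/+ Hdac2 WT group spanned 0.429 to 3.75 CPM (median 2.21) and the HttQ111/+ Hdac2 WT group 2.81 to 4.97 CPM (median 3.59). KO libraries ran from 2.22 to 12.3 CPM (median 9.48) in Htt+/+ and from 4.34 to 13.9 CPM (median 9.52) in HttQ111/+ mice. The low end of both KO groups reached into the WT range, and in Htt+/+ KO mice it consisted of 2 V-series libraries at 2.22 and 2.31 CPM. KO minus WT was 1.87 ± 0.27 (log2, SE) in Htt+/+ and 0.99 ± 0.23 in HttQ111/+ mice. HttQ111/+ minus Htt+/+ was 1.21 ± 0.26 in Hdac2 WT and 0.34 ± 0.18 in Hdac2 KO mice.

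Ptprh, the receptor tyrosine phosphatase of gut microvilli, is read from the reverse strand of chromosome 7 between 4548612 and 4604041, far from Dmkn and Sbsn. Its levels were 1.56 to 2.71 CPM (median 2.16) in Htt+/+ Hdac2 WT and 2.27 to 4.05 CPM (median 3.19) in HttQ111/+ Hdac2 WT striatum. They were 2.79 to 4.03 CPM (median 3.33) in Htt+/+ Hdac2 KO and 2.21 to 6.03 CPM (median 3.47) in HttQ111/+ Hdac2 KO striatum. The Htt+/+ WT and KO libraries were separate, at 2.71 and 2.79 CPM where they came closest, and the remaining groups overlapped. KO minus WT was 0.92 ± 0.12 (log2, SE) in Htt+/+ and 0.40 ± 0.10 in HttQ111/+ mice, and the HttQ111 difference was 0.55 ± 0.11 in Hdac2 WT and 0.04 ± 0.085 in Hdac2 KO mice.

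The groups compared did not overlap for 3 members in Htt+/+ KO against WT (Dmkn, Myo5c and Ptprh, beside 4.7% of all genes). The same held for 2 in HttQ111/+ KO against WT (Dmkn and Myo5c, beside 1.43%). For HttQ111/+ against Htt+/+ in Hdac2 WT mice it held for 1 (Dmkn, beside 0.14%). In Hdac2 KO mice 0 members were separate, beside 0% of all genes. The comparisons share groups, so the values of a gene in them are not independent.

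**Figure D3:**
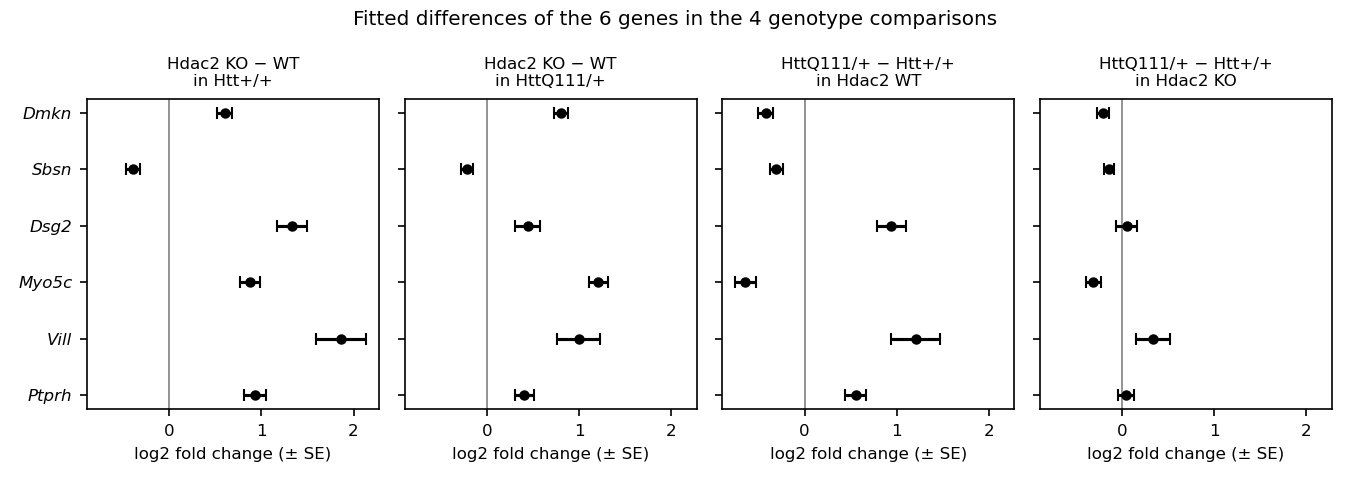
Log2 fold changes with SE (horizontal axis) of the 6 genes in 4 comparisons, KO minus WT within each Htt genotype and HttQ111/+ minus Htt+/+ within each Hdac2 genotype. Dmkn and Myo5c fall on opposite sides of 0 for the 2 alleles, Sbsn is below 0 in each comparison, and the values for HttQ111 in KO mice run from −0.31 to 0.34.

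WT and KO libraries were mostly extracted on different days, so the 2 days with both Hdac2 genotypes are given by library. On 1 of them, the single HttQ111/+ KO library held 35.5 CPM of Dmkn against 14.9 and 15.4 in the HttQ111/+ WT pair of the same day, and 9.01 CPM of Myo5c against 3.81 and 6.53. The same library had 8.997 CPM of Vill against 4.94 and 4.97, and 4.81 CPM of Dsg2 against 2.24 and 3.93. It had less Ptprh (2.69 CPM) than the WT pair (3.91 each) and 16.3 CPM of Sbsn against 17.6 and 18.02. This library, HttQ111/+ Hdac2 KO replicate 1, was also the deepest of the series (77867348 counts) and held the highest summed choroid plexus level of its group (152 CPM, with a group median of 36.6), and the part of either in its values was not tested. On the other day the single Htt+/+ KO library held 33.5 CPM of Dmkn against 21.8 to 23.2 in 3 Htt+/+ WT libraries, 20.2 CPM of Myo5c against 5.41 to 6.16 and 12.3 CPM of Vill against 0.429 to 1.76. Its Ptprh level, 3.36 CPM, was above the 1.99 to 2.45 CPM of the WT libraries, its Dsg2 level of 2.15 CPM lay within their 1.66 to 3.33, and its Sbsn level of 28.4 CPM was above their 24.1 to 27.7. Dmkn, Myo5c and Vill were thus higher in the KO library on both days, whereas Sbsn and Ptprh went opposite ways on the 2 days. With sex and day as terms in place of surrogate variables, the KO differences of Dmkn were 0.76 and 1.08 in Htt+/+ and HttQ111/+ mice, those of Myo5c 1.29 and 1.47 and those of Vill 2.27 and 1.67. Of these the Vill value in HttQ111/+ mice was not called. The same fit gave Dsg2 1.08 and 0.31, Sbsn −0.04 and 0.11, and Ptprh 0.30 and −0.20, none of them called.

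The Htt genotypes were less tied to the day. On each of the same 2 days 2 HttQ111/+ and 3 Htt+/+ Hdac2 WT libraries were extracted together, and on another day, the third, 3 HttQ111/+ and 2 Htt+/+ Hdac2 WT libraries were. Dmkn (14.9 to 15.4 against 23.1 to 27.8 CPM on 1 day, 13.3 in both against 21.8 to 23.2 on the other) and Sbsn (17.6 to 18.02 against 23.0 to 27.4, and 17.7 to 18.2 against 24.1 to 27.7) were lower in the HttQ111/+ libraries on both of the first days. On the third day Dmkn was again lower (16.1 to 19.8 against 23.4 CPM in both), whereas the Sbsn libraries overlapped (21.8 to 27.8 against 24.6 to 27.7). Dsg2 (2.24 to 3.93 against 0.449 to 2.16, and 3.88 to 5.04 against 1.66 to 3.33 CPM), Vill (4.94 to 4.97 against 0.527 to 3.75, and 2.81 to 3.36 against 0.429 to 1.76) and Ptprh (3.91 against 1.73 to 2.71, and 3.19 to 4.05 against 1.99 to 2.45) were higher on both, and likewise on the third day (1.85 to 2.76 against 1.29 to 1.35, 3.25 to 4.37 against 2.71 to 3.06, and 2.27 to 2.48 against 1.56 to 1.99 CPM). Myo5c libraries overlapped on the first day (3.81 to 6.53 against 4.72 to 8.84 CPM) and were separate and lower on the second (3.04 to 3.14 against 5.41 to 6.16) and on the third (4.07 to 6.18 against 8.14 to 8.23). The 2 Htt+/+ Hdac2 WT libraries of the third day, replicates 1 and 2, were those of the 2 mice with 1 floxed allele. Replicate 1 also held 219.9 CPM of summed choroid plexus genes, the most of the 35 libraries. The part of either in these values was not tested.

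The other genes of the same epithelial structures were read from lists of desmosome, epidermal differentiation, brush border, villin family, class V myosin, R3 phosphatase and general epithelial genes. Of 47 distinct list genes tested, 17 passed for KO in Htt+/+ mice, where 17.8% of all genes did, and 15 of 47 passed for KO in HttQ111/+ mice, where 16.5% did. Sprr1a is in both counts and Dsg1a in the first, and each passed the count filter only through the group where it was higher. With sex and extraction date as terms in place of surrogate variables, 4 and 1 list genes passed, where 664 and 320 of all genes did. For HttQ111, 2 of 46 passed in Hdac2 WT mice and 0 of 46 in Hdac2 KO mice, beside 0.403% and 0.00584% of all genes.

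Of 8 desmosome genes tested (15 listed), 4 were higher and 0 lower with KO in Htt+/+ mice, where 9.06% of all genes were higher and 8.79% lower. In HttQ111/+ mice 3 were higher and 2 lower, beside 7.68% and 8.86%. Dsg1c, a further desmoglein, rose by 1.18 ± 0.14 (log2, SE, adjusted p = 5.6e-07) and 0.66 ± 0.13 (adjusted p = 3.7e-04). Dsp, the desmoplakin that links the junction to keratin filaments, rose by 1.19 ± 0.26 (adjusted p = 0.0011) and 1.06 ± 0.23 (adjusted p = 0.0013). Dsc2, a desmocollin, was higher by 1.09 ± 0.20 (adjusted p = 2.7e-04) in HttQ111/+ mice and did not pass in Htt+/+ mice (0.57 ± 0.24, adjusted p = 0.105). Pkp2, a plakophilin, fell by 0.43 ± 0.10 (adjusted p = 0.0033) in HttQ111/+ mice. The medians over the tested list genes were 0.37 and 0.36 beside −0.0014 and −0.0044 over all genes. Dsg1a rose in Htt+/+ mice from a near-zero level (1.39 ± 0.39, adjusted p = 0.0107, at most 42 counts in a library). It passed the count filter only through the KO group, where it was higher, so nothing is read from its place among the 4 higher genes. Dsg4 was at 0 in all libraries. For HttQ111, 0 of 7 tested desmosome genes passed in Hdac2 WT mice, with Dsg1c at 0.55 ± 0.14 (adjusted p = 0.0709).

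Of the epidermal differentiation genes, 6 of 18 listed were abundant enough to test. With Hdac2 KO, 4 rose and 2 fell in Htt+/+ mice, beside 9.06% and 8.79% of all genes. In HttQ111/+ mice 4 rose and 1 fell, beside 7.68% and 8.86%. The risers were the keratins of the upper epidermis Krt10 (0.47 ± 0.079, adjusted p = 5.4e-05, and 0.58 ± 0.070, adjusted p = 4.8e-07) and Krt1 (0.57 ± 0.16 and 0.59 ± 0.14), together with Lor, the cornified-envelope protein loricrin (1.08 ± 0.20 and 0.66 ± 0.17), and Evpl, the envelope protein envoplakin (0.48 ± 0.11 and 0.31 ± 0.10). Sprr1a, a small proline-rich envelope protein that neurons also express after injury, fell by 1.10 ± 0.35 and by 1.35 ± 0.34. It held 2 to 50 counts per library and passed the count filter only through the Hdac2 WT groups, where it was higher, so nothing is read from its place among the genes that fell. Ppl, periplakin, fell by 0.69 ± 0.22 in Htt+/+ mice. Krt10 levels were 29.0 ± 4.8 CPM (SD, n = 8) in Htt+/+ WT and 39.2 ± 2.7 (n = 9) in Htt+/+ KO striatum, and Krt1 and Lor means stayed under 2.1 CPM in each group. For HttQ111, 0 of 6 passed in Hdac2 WT mice. Krtdap, the third gene of the Dmkn and Sbsn cluster, was at 0 in 34 of the 35 libraries.

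Brush border genes did not share the members' KO differences as a group. Of 11 tested, 0 were higher and 2 lower in Htt+/+ KO striatum, beside 9.06% and 8.79% of all genes. The 2 were Cobl, an actin nucleator (−0.34 ± 0.061, adjusted p = 1.3e-04), and Espn, an actin bundler (−1.22 ± 0.31, adjusted p = 0.0055). Espn held only 8 to 32 counts per library. In HttQ111/+ KO striatum Eps8 was higher (0.18 ± 0.047, adjusted p = 0.0088) and Cobl lower (−0.29 ± 0.054, adjusted p = 3.0e-04), beside 7.68% and 8.86% of all genes. Of the 6 tested villin and gelsolin family genes 0 passed in any comparison, beside the 1.87 ± 0.27 of Vill in Htt+/+ mice. The closest relative by name, Vil1, was at −0.07 ± 0.20 (adjusted p = 0.867) and 0.19 ± 0.17 (adjusted p = 0.532).

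Class V myosins and their partners gave 2 higher and 1 lower of 10 tested in Htt+/+ KO striatum, beside 9.06% and 8.79% of all genes. In HttQ111/+ KO striatum they gave 0 higher and 1 lower, beside 7.68% and 8.86%. Myo5a, the neuronal class V myosin, is 14020 bases from Myo5c and fell where Myo5c was higher (−0.13 ± 0.045, adjusted p = 0.0421, and −0.18 ± 0.039, adjusted p = 0.0012). Myo5b, at −0.02 ± 0.056 and −0.04 ± 0.050, did not pass. Rab27a, a small GTPase of secretory vesicles, rose in Htt+/+ KO mice by 0.38 ± 0.087 (adjusted p = 0.0021).

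Ptpro and Ptprv, R3 phosphatases like Ptprh, moved apart with either allele. Ptpro rose with KO by 0.63 ± 0.042 (adjusted p = 7.2e-12) in Htt+/+ and 0.47 ± 0.037 (adjusted p = 2.2e-10) in HttQ111/+ mice, and with HttQ111 by 0.18 ± 0.040 (adjusted p = 0.037) in Hdac2 WT mice. Ptprv fell with KO by 1.44 ± 0.091 (adjusted p = 4.1e-12) and 1.05 ± 0.080 (adjusted p = 1.6e-10), and with HttQ111 by 0.44 ± 0.085 (adjusted p = 0.0132). Ptprb and Ptprj did not pass in these comparisons. The means of Ptprv fell from 42.9 CPM in Htt+/+ Hdac2 WT through 28.3 in HttQ111/+ WT and 21.9 in Htt+/+ KO to 16.9 CPM in HttQ111/+ KO striatum, the same order of groups as the rising means of Ptprh.

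General epithelial identity genes were near the limit of detection. Of 20 listed, 3 passed the count filter (Ocln, St14 and Muc1) and 0 were called in any comparison. Cdh1, the epithelial cadherin, was at 0 in 26 of 35 libraries, Epcam held 0 to 20 counts and Krt8 0 to 23 counts.

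Genes near the members were read next, since Dmkn and Sbsn are neighbours. Their counted intervals are 7629 bases apart and their annotated starts 12285 bases apart. Of the 103 genes within 250 kb of a member, 9 were higher and 7 lower of 67 tested for KO in Htt+/+ mice, against 17.8% called over all genes. The 9 include Dsg1a, which passed the count filter only through the KO group. In HttQ111/+ mice 6 were higher and 6 lower of 66, against 16.5% called over all genes. For HttQ111 in Hdac2 WT mice 1 was higher of 65, and in Hdac2 KO mice 0 of 67 passed, against 0.403% and 0.00584% called over all genes. Around Dmkn, Ffar3, a short-chain fatty acid receptor 73263 bases away, fell by 2.34 ± 0.25 (adjusted p = 4.8e-08) and by 1.91 ± 0.21 (adjusted p = 1.2e-07) with KO. Atp4a, the gastric proton pump subunit 9547 bases from Sbsn, rose by 0.92 ± 0.33 (adjusted p = 0.0463) and 1.22 ± 0.30 (adjusted p = 0.0049). Both genes were low, with 7 to 95 counts per library for Ffar3 and 4 to 42 for Atp4a. Tmem147, 5204 bases from Sbsn, rose by 0.17 ± 0.041 (adjusted p = 0.0036) and 0.11 ± 0.036 (adjusted p = 0.0266). Genes that rose and genes that fell were thus interleaved along the region.

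**Figure D4:**
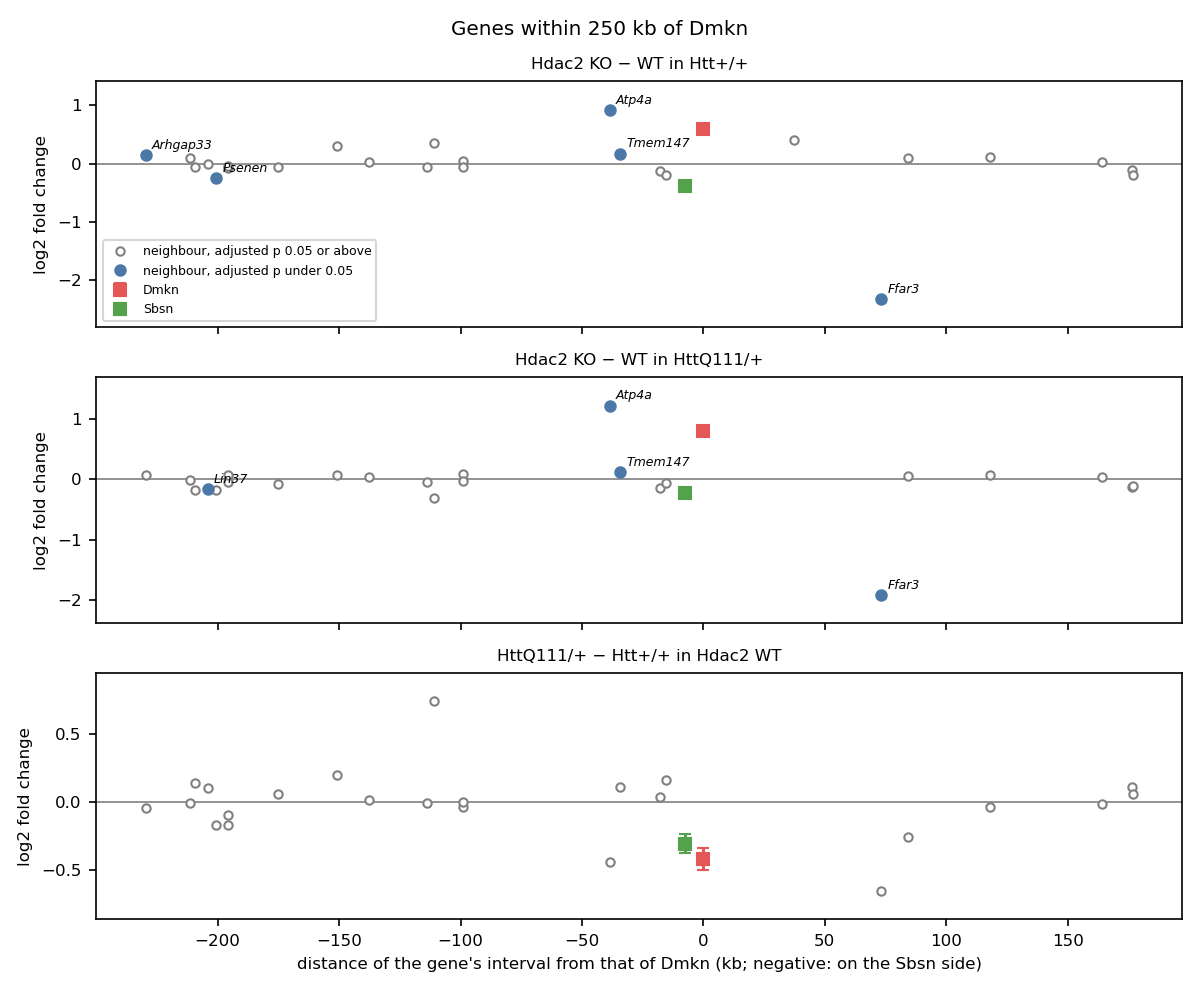
Log2 fold change (vertical axis) of tested genes within 250 kb of Dmkn against their distance from it in kb (horizontal axis), for KO minus WT in Htt+/+ and in HttQ111/+ mice and for HttQ111/+ minus Htt+/+ in Hdac2 WT mice, with filled circles for neighbours that passed the test and squares with SE for the pair. Dmkn at 0.60, 0.80 and −0.42 and Sbsn at −0.39, −0.22 and −0.31 stand among genes most of which lie near 0, and Ffar3 at −2.34 is the lowest point for KO in Htt+/+ mice.

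Near Ptprh, Syt5, a synaptotagmin 2044 bases away, was the 1 neighbour of any member called for HttQ111. Of the fits that left out 1 library, 15 called 0 neighbours and 1, without HttQ111/+ Hdac2 WT replicate 2, called 3. It rose by 0.14 ± 0.030 (adjusted p = 0.0344) with HttQ111 in Hdac2 WT mice and by 0.31 ± 0.032 (adjusted p = 3.3e-08) and 0.14 ± 0.028 (adjusted p = 6.9e-04) with KO. The intervals of the pair do not overlap. Tnnt1 and Tnni3, troponin subunits 32229 and 24382 bases from Ptprh, rose with KO by 1.63 ± 0.20 (adjusted p = 5.4e-07) and 0.97 ± 0.17 (adjusted p = 1.2e-04) in Htt+/+ mice. Plcd1, 189 bases from Vill, did not pass (0.14 ± 0.087, adjusted p = 0.285, and 0.17 ± 0.076, adjusted p = 0.135), and Ctdspl on the other side fell in HttQ111/+ mice (−0.33 ± 0.058, adjusted p = 1.3e-04). Near Dsg2, B4galt6 rose by 0.12 ± 0.024 (adjusted p = 6.2e-04) and 0.08 ± 0.022 (adjusted p = 0.0099). Ttr, a choroid plexus transcript 60728 bases from Dsg2, fell in Htt+/+ KO mice (−3.12 ± 1.0, adjusted p = 0.0359), with 12 to 9158 counts per library.

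Markers of the cell types a striatal dissection can hold moved with some groups. Of 10 tested MSN markers, 0 rose and 5 fell with HttQ111 in Hdac2 WT mice, beside 0.181% and 0.222% of all genes. Their summed level ran from 5858 to 7915 CPM in HttQ111/+ against 8038 to 9171 CPM in Htt+/+ Hdac2 WT libraries. With KO the sums were 7550 to 8948 CPM in Htt+/+ and 6633 to 8285 CPM in HttQ111/+ mice, and of the MSN markers 2 rose and 2 fell in Htt+/+ and 2 rose and 0 fell in HttQ111/+ mice. Over all genes 9.06% rose and 8.79% fell with KO in Htt+/+ mice, and 7.68% and 8.86% in HttQ111/+ mice. Ppp1r1b, part of the MSN sums, was among the risers in both (log2 differences of 0.24 and 0.31). Its row can hold transgene reads in KO libraries. Of 7 tested choroid plexus markers 0 passed for HttQ111, and with KO 1 of 5 rose and 1 fell in Htt+/+ mice and 1 of 7 rose in HttQ111/+ mice. Their summed level ran from 18.002 to 219.9 CPM in Htt+/+ WT, 21.0 to 106.0 in HttQ111/+ WT, 23.3 to 47.2 in Htt+/+ KO and 24.1 to 152.0 CPM in HttQ111/+ KO libraries. Of ependymal, meningeal, endothelial, microglial and oligodendrocyte markers 0 passed in the 4 comparisons, and 1 of 6 astrocyte markers, Aqp4, fell with HttQ111 in Hdac2 WT mice (−0.26 ± 0.050, adjusted p = 0.0122), while the summed astrocyte level overlapped between those groups (1641 to 2049 and 1808 to 2246 CPM). Nrgn, in the list of cortical projection neuron markers, fell with KO (−0.46, adjusted p = 4.2e-04, and −0.28, adjusted p = 0.0127). The part of these markers in the members' differences was not tested.

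Comparisons that did not enter the choice of the genes could be tested, and 3 were run. The first set carriers of the longer repeats against carriers of the shorter ones, beyond the difference between the same identifier series in Htt+/+ mice. Of the 6 members 0 passed the adjusted threshold, beside 0.098% of all genes. At an unadjusted edgeR p under 0.05 lay Dmkn (p = 0.0010), Vill (p = 0.0048) and Ptprh (p = 0.026), beside 8.08% of all genes. Dmkn came closest to the longer repeat carrying the larger HttQ111 difference. Its carrier minus non-carrier difference was −0.25 ± 0.065 (log2, SE) in the A and Z series and −0.60 ± 0.071 in the V series, a gap of −0.35 ± 0.096 (edgeR adjusted p = 0.235). In Hdac2 WT striatum the 3 V-series carriers held 13.3 to 14.9 CPM of Dmkn and the 4 carriers of the A and Z series 15.4 to 19.8 CPM. Vill had a gap of 1.02 ± 0.34 (adjusted p = 0.374) and Ptprh one of 0.44 ± 0.19 (adjusted p = 0.541), and those of Dsg2 (−0.21 ± 0.24), Myo5c (−0.18) and Sbsn (−0.10) were smaller. With surrogate variables in place of sex 2 members passed, Dmkn at −0.33 (adjusted p = 0.0474) and Vill at 1.16 (adjusted p = 0.0147). In that fit 337 of 17346 genes passed. The positive gap of Vill does not mean more Vill with longer repeats. V-series carriers had means of 3.71 CPM in Hdac2 WT and 7.45 in Hdac2 KO striatum, against 4.05 and 11.2 in A and Z carriers. The gap is taken against V-series Htt+/+ mice, which held less Vill than A and Z Htt+/+ mice (−1.36 ± 0.26).

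Mice without the mutation were next compared by identifier series. In this second comparison, chosen after the values had been seen, V-series Htt+/+ mice had less Vill than A and Z mice by −1.36 ± 0.26 (log2, SE, edgeR adjusted p = 0.0028), 1 member called of 6 beside 2.4% of all genes. Htt+/+ Hdac2 WT libraries held 0.429 to 2.67 CPM in the V series (n = 5) and 2.71 to 3.75 in the A and Z series (n = 3). Htt+/+ Hdac2 KO libraries held 2.22 to 6.55 CPM (n = 3) and 9.10 to 12.3 CPM (n = 6). The 2 series did not overlap in either group. Dsg2 was higher in the V series by 0.65 ± 0.19 and just missed the threshold (adjusted p = 0.053). Myo5c in Htt+/+ Hdac2 WT libraries was also split, at 4.72 to 6.16 CPM in the V and 8.14 to 8.84 CPM in the A and Z series, but its difference over both Hdac2 genotypes was −0.28 ± 0.13. The V series gave 3 of 7 HttQ111/+ Hdac2 WT, 5 of 8 Htt+/+ Hdac2 WT, 5 of 11 HttQ111/+ Hdac2 KO and 3 of 9 Htt+/+ Hdac2 KO libraries. With series and sex as terms in place of surrogate variables, the HttQ111 difference of Vill in Hdac2 WT mice was 0.86 in place of 1.21 and was not called, and its KO difference in Htt+/+ mice was 1.67 in place of 1.87 and was called. The part of the identifier series in these differences was not tested beyond that fit.

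Sex was the third. Between 22 males and 13 females 0 of 6 members passed the adjusted threshold, beside 0.0807% of all genes. At an unadjusted edgeR p under 0.05 lay Dsg2 (p = 0.011) and Myo5c (p = 0.023), beside 8.32% of all genes. Dsg2 was at 0.40 (male minus female, log2, edgeR adjusted p = 0.492) and Myo5c at −0.26 (adjusted p = 0.522).

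Pairs of members were next compared within groups, which does not draw on the differences between groups. Group means were removed from log2(CPM + 0.5) and 15 pairs were tested over 35 libraries by permutation within groups. The 2 neighbours Dmkn and Sbsn did not covary (Pearson r = 0.02, p = 0.92, Spearman rho = −0.03, p = 0.89, adjusted p = 0.94 and 0.95, and r = −0.07 without the 2 libraries farthest from the median of Dmkn). By group r was 0.84 in HttQ111/+ Hdac2 WT (n = 7), −0.46 in Htt+/+ Hdac2 WT (n = 8), −0.28 in Htt+/+ Hdac2 KO (n = 9) and −0.47 in HttQ111/+ Hdac2 KO libraries (n = 11), so 1 group went against the other 3. With the counts of C630016N16Rik taken off Sbsn, a choice made after the data had been seen, r was 0.46 (permutation p = 0.0187).

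Of the 15 pairs, 6 passed after adjustment. The strongest was Dsg2 with Myo5c, at r = −0.76 (permutation p = 1e-05, the smallest these permutations can give, adjusted p = 1.5e-04) and rho = −0.82 (adjusted p = 1.5e-04), and r = −0.82 without the 2 libraries farthest from the median of Dsg2. Libraries with more desmoglein 2 therefore held less of this myosin. Dsg2 was also lower where Sbsn (r = −0.54, permutation adjusted p = 0.0019, rho = −0.59) and Vill (r = −0.53, adjusted p = 0.0041, rho = −0.58) were higher. Myo5c rose with Sbsn (r = 0.58, permutation adjusted p = 0.0028, rho = 0.60) and with Vill (r = 0.53, adjusted p = 0.0018, rho = 0.55), and Dmkn went against Ptprh (r = −0.63, adjusted p = 0.0018, rho = −0.57). Raw permutation p-values of these 5 pairs ran from 3.5e-04 to 0.0016, and adjusted p-values of rho from 0.00155 to 0.00265. Without the 2 farthest libraries the 5 values of r were −0.60, −0.54, 0.57, 0.52 and −0.59. The values of Sbsn with Dsg2 and Myo5c, here and below, use its whole row, which can hold reads of other genes. They were not tested with C630016N16Rik taken off.

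With identifier series and sex removed within groups, Dsg2 with Myo5c was at r = −0.54 (permutation adjusted p = 0.0065), Dsg2 with Sbsn at −0.57 (adjusted p = 0.0018), Sbsn with Myo5c at 0.57 (adjusted p = 0.020) and Myo5c with Vill at 0.46 (adjusted p = 0.020). Dsg2 with Vill fell to −0.17 (permutation adjusted p = 0.41) and Dmkn with Ptprh to −0.41 (adjusted p = 0.066). Vill with Ptprh (r = 0.47, permutation adjusted p = 0.021) and Dsg2 with Ptprh (r = −0.50, adjusted p = 0.022) then passed. Within the 19 A and Z libraries and within the 16 V libraries, r for Dsg2 with Myo5c was −0.64 and −0.43.

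The members' spread within groups also followed that of cell type markers, given here as a description over the same 35 libraries. Dsg2 ran against the summed astrocyte (r = −0.77), microglial (−0.68), cortical neuron (−0.66) and meningeal (−0.64) markers. Myo5c ran with astrocyte (0.74), meningeal (0.63) and microglial (0.61) markers, Vill with meningeal markers (0.72), Sbsn with microglial markers (0.61) and Dmkn with MSN markers (0.58). Among these marker lists Ptprh had its largest value with the oligodendrocyte list (−0.42). All these sums come from the same libraries and share their depth and dissection, and the part of tissue makeup in the members' covariation was not tested.

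**Figure D5:**
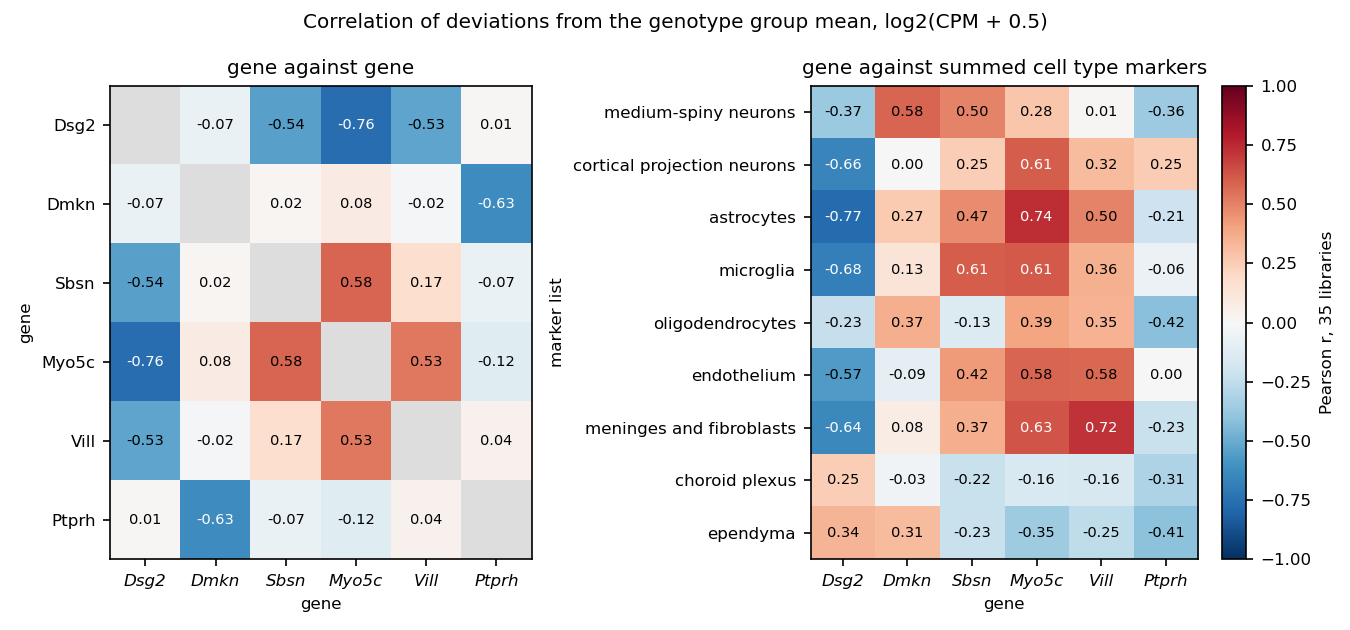
Pearson r of deviations from group means in log2(CPM + 0.5) over 35 libraries, for pairs of the 6 genes on 1 side and for each gene with the summed level of each marker list on the other. The colour scale runs from −1 to 1, and Dsg2 with Myo5c (−0.76) and Dsg2 with the astrocyte markers (−0.77) are the most negative cells.

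Over all 35 libraries, the genes whose log2(CPM + 0.5) was most like a member's lay outside the 250 kb around it. Of 17345 genes compared, Myo5c was most like Tnnt1 (r = 0.92), the troponin gene that lies near Ptprh, then Kank3 (0.92) and Kremen1 (0.91). Dmkn was most like Wwc1 (r = 0.90), Ptplb and Upb1 (both 0.86). Sbsn was closest to Hrk (0.85), Adra2c and Gpr83 (both 0.80). Vill was closest to Arl2bp, Glb1 (both 0.83) and Unc13c (0.82), Dsg2 to Dpp10, Intu (both 0.84) and Slc27a2 (0.84), and Ptprh to Tceal5, Gsto1 (both 0.86) and Gng3 (0.86). These values include the differences between groups that chose the members.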

How the data were processed

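Striatal RNA of 35 mice was sequenced as poly(A) libraries with a strand-marking kit and ERCC spike-ins. One further library had been left out by the study. The deposited values are raw counts per gene. The authors aligned paired reads with GSNAP to GRCm38 and counted unique alignments over whole gene intervals with bedtools. Use of strand in counting is not given in the sources used here. A count of 2 was more frequent (42954 values) than counts of 1 (24677) or 3 (10969), as happens when both ends of a fragment are counted, so counts exceed molecules.

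From these counts 92 spike-ins, 6152 genes of at most 250 nt and 2 mitochondrial rRNA genes were removed. Genes needed at least 6 counts in every library of 1 of the 2 groups compared. edgeR 4.0.16 (R 4.3.3) fitted quasi-likelihood models with TMM scaling, the 4 groups and 9 surrogate variables from sva 3.50.0. Repeat length was fitted with the groups, sex and identifier series as terms, and sex with the groups alone. CPM is the count scaled to the TMM-adjusted total of the genes kept, and the SE is the log2 difference over the root of F. Adjusted p-values are Benjamini-Hochberg over all genes tested, with 0.05 as threshold. They set a difference against the spread between separate mice that the other terms of the fit leave. In the genotype fits these terms include the 9 surrogate variables, which were estimated from the same counts. On simulated data with 200 genes changed by 1 log2 unit, the fit for HttQ111 in Hdac2 WT mice recovered 92.5% with 12 wrong calls, that for repeat length 80.5% and that for sex 95.5%. The simulated counts held no extraction-day, identifier-series or other hidden structure. A change of 1 log2 unit is also larger than the HttQ111 difference of each member but Vill in Hdac2 WT mice. These shares check the code and do not measure recovery in the real libraries. Correlations used 100000 two-sided permutations within groups (SciPy 1.17.1).

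The members and the gene lists were chosen with earlier results of these data known. Named genes were the members, the 3 genes most correlated with each, up to 4 called genes of each list or neighbourhood by adjusted p with other tested genes as values, and marker sums. Replicate numbers did not pair the mice. Alternatives were other covariates, filters, scaling, DESeq2 1.42.0, subsets of mice and leaving out each library. The comparison of identifier series, the subtraction of C630016N16Rik and the removal of series and sex from correlations were chosen after seeing the data. Promoter windows came from RefSeq on GRCm38.p6, with entries for 5 of the 6 members.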

Additional observations from a re-analysis of the deposited data

Results flagged for a closer look

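Of the 18 sets of 7 to 9 libraries examined, 1 gene in 1 group each, 2 held a library far from the rest of its group by Dixon's criterion, which chance alone meets in about 1 of 20 such sets. Dmkn stood at 27.8 CPM in Htt+/+ Hdac2 WT replicate 8, with the nearest library of that group at 23.4 CPM. This library lay below each Htt+/+ Hdac2 KO library, the lowest of which held 30.0 CPM. Sbsn stood at 28.4 CPM in Htt+/+ Hdac2 KO replicate 9, with the nearest library at 23.6 CPM. It was the only Htt+/+ Hdac2 KO library extracted on a day shared with Hdac2 WT libraries, and it also held the highest Myo5c (20.2 CPM) and Vill (12.3 CPM) of its group.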

How the results depend on the processing

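The members' counts depended on the covariates. For KO in Htt+/+ mice 6 members were called, 3 with sex and extraction date as terms, where 4 list genes and 3 neighbours passed, and 6 neighbours passed in males only. For KO in HttQ111/+ mice the members called were 3 with no covariate, with sex, with sex and identifier series and with only the 2 groups, and 2 with sex and date or in males only. There list genes were 1 with sex and date and 8 in males, and neighbours 2 with sex and date and 7 with only the 2 groups. Over all genes 2841 of 17169 were called in the reported fit, 2311 with no covariate, 2332 with sex and 2836 with series. All-gene calls were 1595 with only the 2 groups, 320 with date and 1301 of 17440 in males only. For HttQ111 in Hdac2 WT mice the members called were 1 with no covariate, with sex or with only the 2 groups, 0 in males and 3 with at least 20 counts. List genes there were 0 with no covariate, with sex, with only the 2 groups, in males and with at least 20 counts, 1 with no filter and 4 with identifier series. Neighbours were 3 with date, 8 with series, 3 without the 2 mice with a floxed allele, and 0 with only the 2 groups, in males, with no filter and with at least 20 counts. Over all genes the calls for HttQ111 were 69 of 17133 in the reported fit, 858 with series and 385 with date. They were 258 without the 2 mice with a floxed allele and 50 each with no covariate and with sex. With no filter 34 of 26299 genes were called, and with at least 20 counts 31 of 15651. With only the 2 groups and in males only 1 gene each was called. In KO mice DESeq2 called 1 member and 1 list gene, beside 45 of all genes.

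The replicate block, fitted although the numbers did not pair the mice (mean r of same-numbered libraries 0.055, above 0.1 in 15 of 45 pairs), called 3 members for KO in HttQ111/+ mice, 1 for HttQ111 in Hdac2 WT mice with 0 list genes and 0 neighbours, and 1 member and 1 neighbour for HttQ111 in KO mice. Over all genes it called 1854, 13 and 23 in these comparisons in turn.

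Signs turned for Sbsn (0.11) and Ptprh (−0.20) for KO in HttQ111/+ mice with sex and date, and for Ptprh by sex with series (−0.048) or date (−0.0049). For repeat length, 2 members passed with surrogate variables and 3 among the 18 carriers alone, where Dsg2 (0.56) and Vill (−0.38) changed sign. Over all genes 337 and 825 passed in these fits. The correlation of Dmkn with Sbsn was −0.12 with date removed, 0.46 with C630016N16Rik taken off and −0.19 to 0.12 without 1 library. Leaving out 1 library gave, for KO in Htt+/+ mice, 6 members throughout, 12 to 18 list genes and 11 to 16 neighbours, and for KO in HttQ111/+ mice 4 to 6, 13 to 17 and 8 to 13. For HttQ111 in Hdac2 WT mice it gave 1 to 6, 1 to 3 and 0 to 3, and in KO mice 0 to 1, 0 to 1 and 0, with 0 members for repeat length or sex. It turned the sign of Dsg2 for HttQ111 in KO mice (−0.012 to 0.089) and by sex of Dmkn (−0.021 to 0.032), Sbsn (−0.0073 to 0.057) and Ptprh (−0.0070 to 0.095). The cause of these changes was not tested.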
